A study of Mus with 4 samples.

Results

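Sag encodes S-arrestin, the arrestin of rod photoreceptors. All circular RNAs (circRNAs) that the deposited tables assign to Sag as their single host gene were taken, which gave 24 of 44073 circRNAs in the series. Sag was selected with earlier results of these data known: its summed circRNA reads stood higher in the VLDLR deletion than in wild type. Those genotype values are therefore a description below and carry no test. Ocular tissue came from C57BL/6J mice of 4 groups with 1 library each: wild type or VLDLR deletion (loss of the very-low-density lipoprotein receptor), at postnatal day 12 (P12) or P13. Every group had been kept in 75% oxygen from day 7 to day 12. P12 tissue was taken right after the oxygen period and P13 tissue after a further day in air, so that age and return to air cannot be told apart. The sources used here give neither the number of animals in a library nor the cells in which the deletion acts. The tissue is a mixture of eye cell types, so that a difference in the share of rods and a difference in Sag RNA per rod cannot be told apart.

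S-arrestin takes part in switching off the light response of rods, by ending the activation of the G protein transducin. S-arrestin is among the most abundant proteins of rods, and in light it moves from the inner segment to the outer segment. A circRNA forms when a splice donor is joined to an acceptor that lies upstream of it in the gene, and reads across this back-spliced junction count such molecules. Reads at the same splice positions that do not cross the junction (non-junction reads) come mainly from RNA spliced in the usual order. Linear RNA had been removed before sequencing, per the labels' protocols.

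Where 4 values are given, wild type comes first and then the deletion, each with P12 before P13. Junction reads numbered 662811, 759063, 299723 and 341873. Between 4957 and 6291 host genes were listed per library. Levels in CPM are junction reads per 1000000 reads of effective library size (edgeR's TMM scaling), and intervals are 95% counting intervals. Duplicate reads cannot be told from separate molecules, so that the intervals cover counting error only. The wild-type libraries came from another sequencing run than the deletion libraries, per the read identifiers, and genotype and run cannot be told apart.

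All 24 Sag circRNAs were of the exon class on the plus strand and lay inside the Sag interval of chromosome 1. Their spans in the genome ran from 2789 to 32061 bases, with a median of 11132.5. They combined 10 acceptors with 8 donors, numbered here along the gene, out of 61 combinations in which the donor lies downstream. In 4 cases an acceptor and a donor lay 56 to 73 bases apart, close enough to bound a single exon: acceptor 3 with donor 1 (61 bases), acceptor 5 with donor 2 (60 bases), acceptor 8 with donor 4 (73 bases) and acceptor 10 with donor 7 (56 bases). The tables give genomic ends and not the exons inside a circle, so that the sequence each circle holds was not analysed here.

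**Figure D1:**
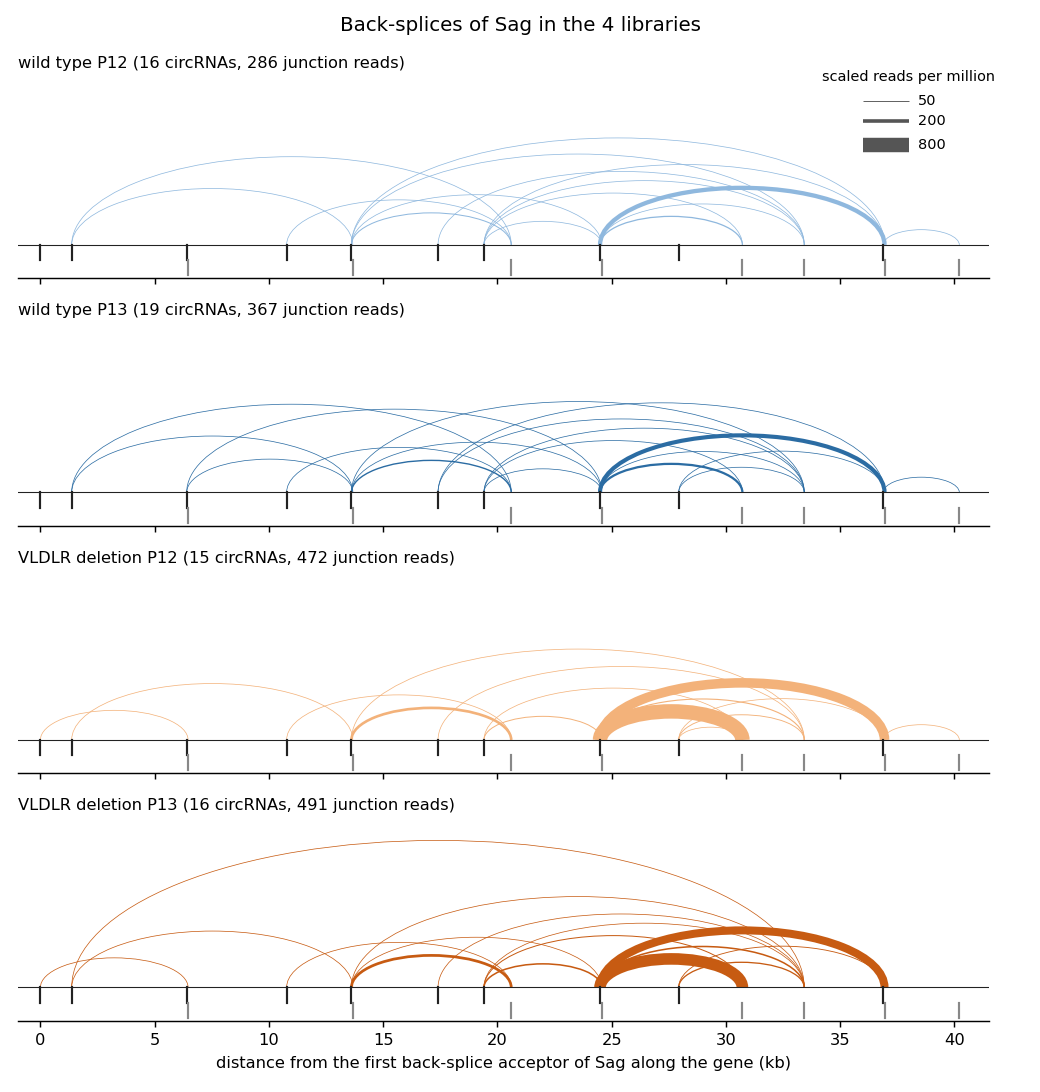
Back-splices of Sag in each library, drawn as arcs from acceptor (dark tick) to donor (grey tick) against the distance along the gene in kb. Line width is proportional to the level in CPM, with a smallest width for low values; the thickest arc joins acceptor 8 to donor 7 in wild type and acceptor 8 to donor 5 in the deletion.

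Of the 24 circRNAs, 10 were listed in all 4 libraries and held 91.0% of the 1616 Sag reads. There were 5 listed in 3 libraries, 2 in 2 libraries and 7 in 1 library. A table lists a circRNA from 2 reads upward, so that an unlisted one can hold 1 read. By genotype, 15 were listed in both, 6 in wild type alone with at most 7 reads, and 3 in the deletion alone with at most 6 reads. Over the whole series 28563, 31208, 18022 and 20129 circRNAs were listed per library. The split by genotype was not computed over all circRNAs, so that nothing is read from these member counts. The count per library was 16, 19, 15 and 16. At the depth of the smallest library, 12.6, 11.6, 15.0 and 15.4 would be expected. The 3 most abundant circRNAs held 76.1% of all Sag reads, and the remaining members were thin.

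The most abundant Sag circRNA joined acceptor 8 (position 87828397) to donor 7 (87840847). It held 136, 148, 137 and 129 reads, or 238, 228, 530 and 444 CPM. The circRNA from the same acceptor to donor 5 (87834627) held 40, 81, 207 and 187 reads, or 70.0, 125, 801 and 643 CPM. Within each genotype the days lay close together for the first of these circRNAs, whereas the second was lowest in wild type P12. The circRNA from acceptor 5 (87817516) to donor 3 (87824510) came next with 32, 50, 38 and 44 reads, or 56.0, 77.2, 147 and 151 CPM. The order of the first 2 thus differed between the genotypes: acceptor 8 to donor 7 led in both wild-type libraries, and acceptor 8 to donor 5 in both deletion libraries.

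The other named members were thinner. Acceptor 7 (87823317) to donor 4 (87828469) had 9, 13, 14 and 25 reads, and acceptor 7 to donor 5 had 12, 19, 6 and 16. Acceptor 8 to donor 6 (87837333) had 7, 4, 16 and 25 reads. In CPM these 3 stood at 15.8, 20.1, 54.2 and 86.0, at 21.0, 29.3, 23.2 and 55.0, and at 12.3, 6.18, 61.9 and 86.0. All 3 were highest in deletion P13, and in deletion P12 acceptor 7 to donor 5 lay between its wild-type levels. Acceptor 4 (87814680) to donor 3 had 8, 6, 8 and 3 reads, acceptor 6 (87821307) to donor 6 had 6, 6, 4 and 7, and acceptor 2 (87805273) to donor 2 (87817575) had 5, 3, 4 and 3. The 12 members outside the rule for named circRNAs held at most 9 reads in any library.

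**Figure D2:**
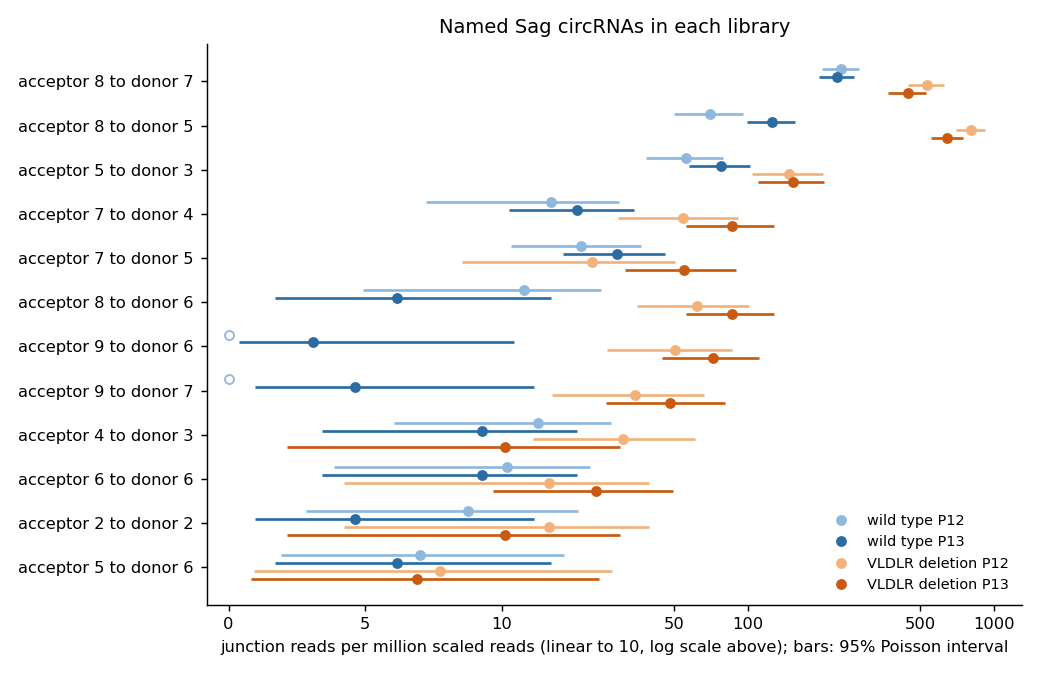
Levels in CPM of the 12 named Sag circRNAs (the 10 listed in all libraries and the 10 most abundant), with 95% Poisson intervals; open points mark a circRNA that was not listed. The axis is linear up to 10 and logarithmic above. Acceptor 8 to donor 5 shows the widest gap between the genotypes among the 3 most abundant, and the intervals of the lowest members overlap.

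Summed over all its circRNAs, Sag had 286 wild-type reads at P12 (exact Poisson interval 254 to 321) and 367 at P13 (330 to 407). In the deletion it had 472 at P12 (430 to 517) and 491 at P13 (449 to 536). These were 501, 567, 1826 and 1689 CPM. Sag ranked 481, 426, 89 and 103 among the hosts listed. The order of the levels was deletion P12, deletion P13, wild type P13 and wild type P12. Neighbours within a genotype did not differ beyond counting error, and the genotypes did not overlap. The deletion stood 3.65-fold above wild type at P12 (3.14 to 4.24) and 2.98-fold at P13 (2.60 to 3.42), where 7.45% and 6.4% of hosts with at least 20 reads were at least 2-fold higher. With all 4 libraries in an additive fit the log2 difference was 1.72, against a median of -0.11 over 3899 hosts.

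The genotype difference was scale-dependent. The authors' own scale, SRPBM, divides junction reads by 1 constant per library, and on it Sag stood at 31.3, 40.3, 44.5 and 40.7. The ratio of deletion to wild type was then 1.42 at P12 and 1.01 at P13, and the log2 difference of the additive fit was 0.26. The median host stood at -1.57 on that scale, and 1 SRPBM unit corresponded to 9.14, 9.10, 10.6 and 12.1 junction reads. Sag stood above the median host on both scales. Each scale divides a library by 1 constant, so that this position is the same on both by construction and is no separate support.

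The members did not share this difference equally. At P12 the circRNA from acceptor 8 to donor 5 was 11.4-fold higher in the deletion (8.12 to 16.5), and at P13 5.14-fold (3.94 to 6.76). That from acceptor 8 to donor 7 was 2.23-fold higher (1.74 to 2.84) and 1.94-fold higher (1.52 to 2.48), and that from acceptor 5 to donor 3 was 2.63-fold (1.60 to 4.34) and 1.96-fold (1.28 to 3.001). Among the thinner members, acceptor 8 to donor 6 was 5.05-fold (1.97 to 14.5) and 13.9-fold (4.81 to 55.1) higher, and acceptor 7 to donor 4 was 3.44-fold (1.39 to 9.01) and 4.29-fold (2.11 to 9.12) higher. Acceptor 7 to donor 5 had ratios of 1.11 (0.34 to 3.18) and 1.88 (0.90 to 3.85), which did not differ beyond counting error. All circRNAs other than those of acceptors 8 and 9 together were 1.80-fold (1.34 to 2.43) and 1.99-fold (1.53 to 2.57) higher, and on the SRPBM scale 0.70-fold and 0.67-fold. On the SRPBM scale acceptor 8 to donor 5 kept its direction, with ratios of 4.46 and 1.74. So did the thinner acceptor 8 to donor 6 (1.97 and 4.72) and acceptor 7 to donor 4 (1.34 and 1.45). Acceptor 7 to donor 5 stood at 0.43 and 0.64 on that scale. The circRNA from acceptor 8 to donor 7 turned to 0.87 and 0.66 there, and that from acceptor 5 to donor 3 stood at 1.02 and 0.66. Taking out acceptor 8 to donor 5 left Sag 2.38-fold and 2.37-fold higher, and on the SRPBM scale 0.93-fold and 0.80-fold. Among members with at least 20 reads over the pair of libraries, 5 of 5 were at least 2-fold higher at P12 and 4 of 7 at P13, and 0 were 2-fold lower. Of all circRNAs with that many reads, 13% and 12% were at least 2-fold higher, and 15.4% and 14.3% at least 2-fold lower. Since Sag was selected on this contrast, nothing is read from these counts.

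Acceptor 9 (87831839) was used mostly in the deletion libraries. Its 3 circRNAs were unlisted in wild type P12 and held 5, 28 and 35 reads in the other libraries, which was 1.36%, 5.93% and 7.13% of Sag reads. At P13 this was 15.6-fold higher in the deletion by scaled reads (6.09 to 51.0), and 5.28-fold on the SRPBM scale. At P12 none of the 3 was listed in wild type. With 3 reads in place of none the ratio was 20.6, a point value that leaves out counting error. The exact interval of the ratio, with no wild-type reads, began at 15.7. Both hold if the circRNAs were not left out by the caller. The circRNA from acceptor 9 to donor 6 had 2, 13 and 21 reads in those 3 libraries, and that to donor 7 had 3, 9 and 14. Acceptor 1 (87803904), whose single circRNA ends at donor 1 (87810367), was listed in the deletion libraries alone, with 5 and 6 reads. Other members had more reads in the wild-type libraries, which were deeper, so that this alone is not a higher level. Acceptor 5 to donor 4 had 9 and 6 reads in wild type (15.8 and 9.26 CPM). It was unlisted in deletion P12 and had 4 reads in deletion P13 (13.8 CPM). Acceptor 6 to donor 7 had 7 reads in wild type P13 alone. Acceptor 5 to donor 6 had 4, 4, 2 and 2 reads, or 7.00, 6.18, 7.74 and 6.88 CPM. Its ratio of deletion to wild type of 1.11 at P12 had an interval from 0.10 to 7.71.

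Because all circRNAs of acceptor 8 share that site, the donor joined to it can be compared within a library, independently of its depth. In wild type donor 5 took 21.9% of the acceptor 8 reads at P12 (Clopper-Pearson interval 16.1% to 28.6%) and 34.8% at P13 (28.7% to 41.3%). In the deletion it took 57.5% at P12 (52.2% to 62.7%) and 54.8% at P13 (49.4% to 60.2%). Donor 7 took 74.3%, 63.5%, 38.1% and 37.8%, and donor 6 took 3.83%, 1.72%, 4.44% and 7.33%. The intervals of the deletion libraries for donors 5 and 7 did not overlap those of wild type. Each wild-type library had been sequenced on 2 lanes. Donor 5 took 25.3% and 19.2% in lanes 2 and 3 for P12 and 33.3% and 36.6% for P13, all below the deletion values. Acceptor 8 as a whole held 64.0%, 63.5%, 76.3% and 69.5% of Sag reads.

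**Figure D3:**
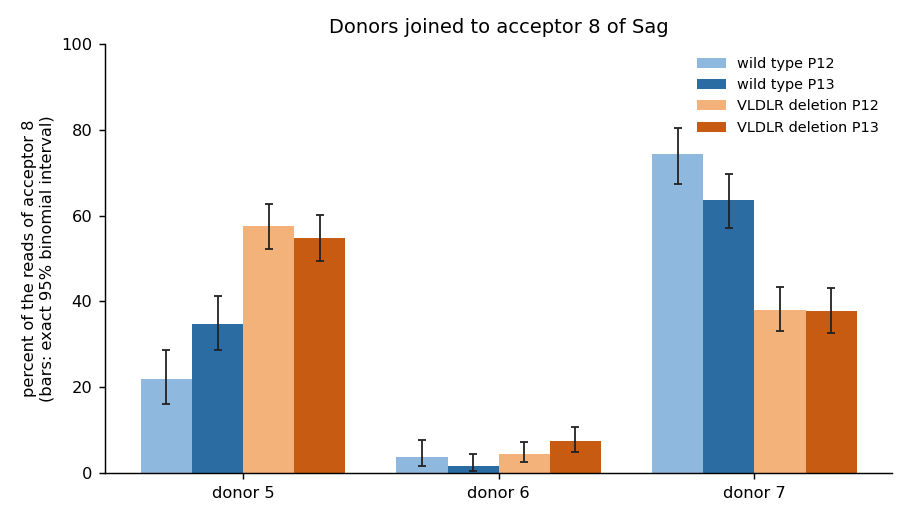
Percent of the reads of acceptor 8 that joined donor 5, donor 6 or donor 7 in each library, with exact 95% binomial intervals. Donor 7 took most reads in wild type (74.3% and 63.5%) and donor 5 most in the deletion (57.5% and 54.8%).

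Sag circles were rare beside the other Sag RNA at the same splice sites. Non-junction reads at the ends of a Sag circRNA ran from 1148 to 7723 and from 1392 to 8997 in the wild-type libraries, and from 776 to 5012 and from 1689 to 5162 in the deletion libraries. By its highest such count Sag ranked 8, 10, 9 and 8 among all hosts. The highest count was that of the circRNA from acceptor 2 to donor 2 near the start of the gene in all 4 libraries. The lowest was that of acceptor 10 to donor 8, near its end, in the 3 libraries that listed it. The pooled junction ratio (junction reads, each counted at both ends, as a fraction of themselves and the non-junction reads together) was 0.00915, 0.00817, 0.0254 and 0.0204. Among hosts with at least 50 junction reads, Sag ranked 2 of 2002, 3 of 2131, 2 of 1117 and 2 of 1216 from the lowest. The pooled ratio counts non-junction reads at a shared splice site again for each circRNA that uses it. It therefore also depends on how many circRNAs of a host are listed and which sites they share, and so does this rank. The median host stood at 0.301, 0.300, 0.387 and 0.372. The junction ratio differed between members by orders of magnitude. It reached 0.107, 0.0945, 0.154 and 0.133 for acceptor 8 to donor 7 and 0.0335, 0.0546, 0.211 and 0.179 for acceptor 8 to donor 5. For acceptor 2 to donor 2 it stood at 0.00129, 6.66e-04, 0.00159 and 0.00116.

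Over the 10 circRNAs listed in all 4 libraries there were 6.72, 7.14, 16.5 and 15.5 junction reads per 1000 non-junction reads. The deletion was 2.46-fold higher at P12 and 2.17-fold at P13 by this measure, which does not depend on library size. The median host stood at 1.00 and 0.97, and 3.71% and 2.22% of hosts were at least 2-fold higher. Sag ranked 21 of 1214 hosts and 17 of 1306 from the highest, again as a description. Between the days the same measure was 1.06-fold in wild type and 0.94-fold in the deletion. The share of all matched non-junction reads that fell on Sag was 1.44-fold higher in the deletion at P12 and 1.31-fold at P13, while its share of junction reads was 3.51-fold and 2.80-fold higher. Single members differed here too. Per non-junction read, acceptor 8 to donor 5 was 7.74-fold and 3.77-fold higher, acceptor 8 to donor 7 was 1.52-fold and 1.46-fold, and acceptor 5 to donor 6 was 0.70-fold and 0.83-fold, with few reads behind the last. Neighbouring members share splice sites, so that their non-junction reads are not separate measurements.

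**Figure D4:**
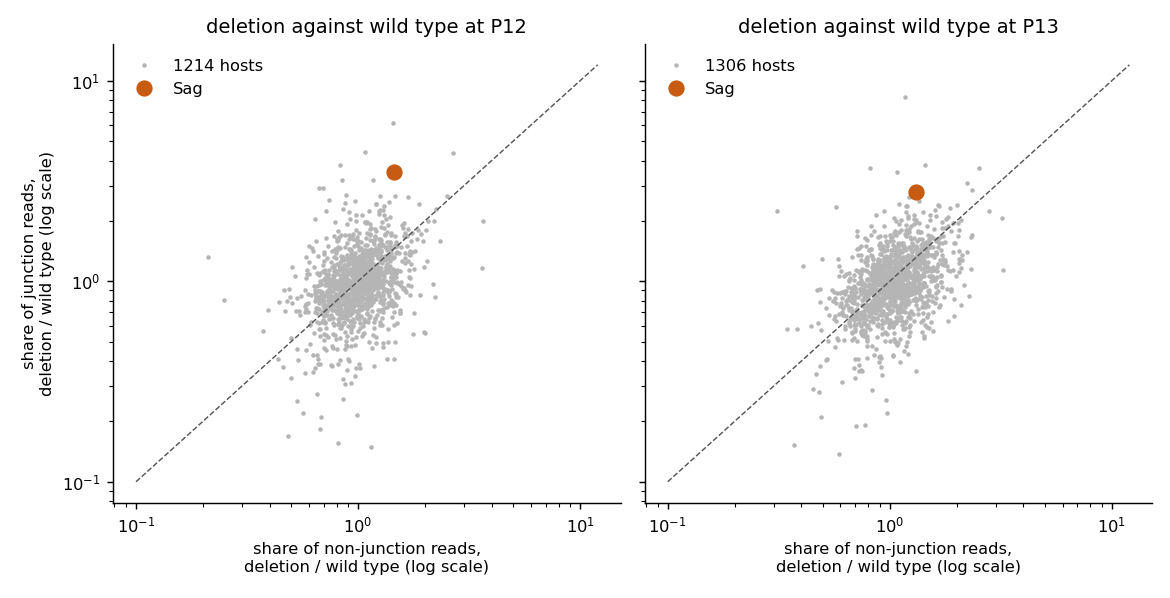
For each host, the share of junction reads (vertical) and of non-junction reads (horizontal) in the deletion over wild type at P12 and P13, on log scales, over circRNAs listed in all 4 libraries. The dashed line marks equal ratios. Sag lies above it on both days, at 3.51 against 1.44 and at 2.80 against 1.31.

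The comparison of the days was not used to select Sag and was tested with genotype as an additive term. No day difference was called for the summed Sag reads: the log2 difference was 0.03, with a Benjamini-Hochberg adjusted p of 0.999 in edgeR's quasi-likelihood fit. Of all 3899 hosts 0.103% were called, so that a call was rare for any gene. Within wild type P13 stood 1.13-fold above P12 (0.97 to 1.33), and within the deletion 0.93-fold (0.81 to 1.05). Of the 24 members 7 had at least 10 reads in 2 libraries and could be tested, and acceptor 9 to donor 6 and acceptor 8 to donor 6 were among them through their deletion reads alone. None was called (0 at an unadjusted p under 0.05, and 0 by DESeq2), against 0.0228% of the 8785 circRNAs tested by edgeR. The log2 differences of these 7 ran from -0.16 for acceptor 8 to donor 7 to 0.83 for acceptor 9 to donor 6. At this number of libraries the test recovered 7% of simulated 2-fold and 65% of simulated 4-fold changes among circRNAs, and 40% and 92% among hosts, so that a change of such size in a member would often have been missed.

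Single libraries were also compared in pairs. In wild type 0 of 5 members with at least 20 reads moved 2-fold (7.16% of all such circRNAs were 2-fold higher and 6.69% lower). In the deletion 1 of 8 was 2-fold higher, acceptor 7 (87823317) to donor 5, with 6 and 16 reads and an interval of the ratio from 0.88 to 7.40 (6.55% of all were higher and 5.7% lower). The circRNA from acceptor 8 to donor 5 was 1.79-fold higher at P13 in wild type (1.21 to 2.68) and 0.80-fold in the deletion (0.66 to 0.98). That from acceptor 8 to donor 7 was 0.96-fold (0.76 to 1.22) and 0.84-fold (0.65 to 1.07).

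Sag was set beside the other genes of rod phototransduction, of which 11 of 21 including Sag were listed. Genes with no listed circRNA included the transducin subunits Gnat1 and Gngt1, the channel subunit Cnga1, recoverin (Rcvrn), phosducin (Pdc), Slc24a1, Rgs9bp, Guca1a and Guca1b. This concerns circles and not the linear RNA of these genes, so that they gave no check of the tissue. Without Sag the list summed to 2132, 3055, 3300 and 3991 CPM, and without Pde6a as well to 1332, 1774, 1544 and 2033 CPM, where the genotypes overlapped. Of its 8 hosts tested 0 were called for the day by edgeR. An unadjusted p under 0.05 was found for 3 of the 8, against 4.67% of all hosts (182 of 3899). These 3 were Pde6a, which encodes a catalytic subunit of the rod phosphodiesterase, Gucy2f, a photoreceptor guanylate cyclase, and Rgs9, which speeds the shut-off of transducin, and their log2 day differences were 0.42, 0.47 and 0.33. Among the 7 tested genes other than Sag the median log2 genotype difference was 0.64, against -0.11 over all hosts. Of these 7 genes 4 stood above 0. The share of all hosts above 0 was not computed, so that nothing is read from this count. Pde6a had 457, 830, 454 and 569 reads (800, 1281, 1756 and 1958 CPM; log2 genotype difference 0.86). Pde6b, the partner subunit of Pde6a, had 17, 46, 27 and 40 reads (1.32). Gucy2f had 198, 288, 128 and 217 (0.64), Gnb1, a G protein beta subunit found in many cell types, 91, 132, 71 and 92 (0.71), Rgs9 408, 603, 149 and 201 (-0.37) and the channel subunit Cngb1 33, 52, 11 and 26 (-0.10). These log2 genotype differences are on the CPM scale and were not recomputed for these genes on the SRPBM scale. There the median host stood at -1.57, as given above, so that their signs depend on the scale.

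**Figure D5:**
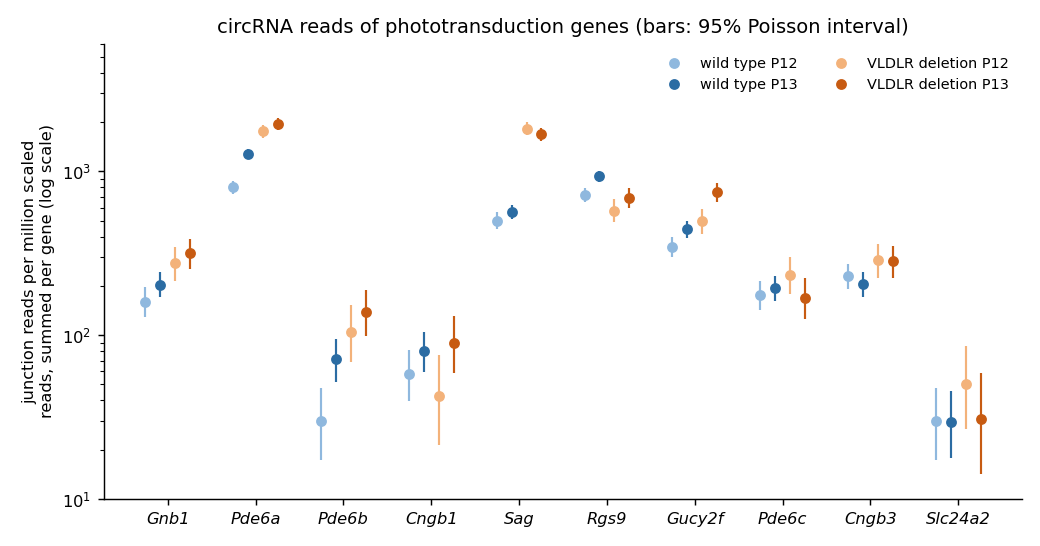
Levels in CPM, summed per gene on a log scale, for the rod and cone phototransduction genes with at least 50 reads over the 4 libraries, with 95% Poisson intervals. Sag and Pde6a stand highest in the deletion libraries, while the Rgs9 values of the deletion lie below those of wild type on the same day.

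Low junction ratios were also seen in Pde6b (0.00551, 0.00596, 0.0143 and 0.0129), close to those of Sag. Pde6a stood at 0.293, 0.231, 0.171 and 0.171 and Rgs9 at 0.189, 0.150, 0.176 and 0.162. The pooled junction ratio of Sag and Pde6b was thus higher in both deletion libraries than in wild type, and that of Pde6a was lower. For Sag this did not hold for the median ratio over circRNAs with at least 10 reads in a library, which was 0.0239, 0.0179, 0.0213 and 0.0223. That median covered 4, 5, 6 and 8 circRNAs, so that the members differ between the libraries. The 3 most abundant members each had a higher ratio in both deletion libraries, with 0.0143, 0.0179, 0.0238 and 0.0254 for acceptor 5 to donor 3. Of 11 cone phototransduction genes 4 were listed and 3 could be tested. They were the cone phosphodiesterase subunit Pde6c (100, 125, 60 and 49 reads; log2 genotype difference 0.11), the cone channel subunit Cngb3 (131, 133, 74 and 82; 0.39) and the exchanger Slc24a2 (17, 19, 13 and 9; 0.42). Cone arrestin (Arr3) had no listed circRNA. In the arrestin family 3 of 10 genes were listed: Sag, the beta-arrestin Arrb1 with 4, 2, 4 and 4 reads, and Arrdc3 with 4 reads in wild type P12 alone.

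Marker lists of other eye cells were summed in the same way. Photoreceptor outer segment and cilium genes had 6069, 6835, 6693 and 6465 CPM (15 of 19 genes listed), and bipolar cell markers 651, 647, 1052 and 771 (6 of 12). Lens markers had 991, 1246, 2894 and 2199 (16 of 23), striated muscle markers 2405, 2515, 2550 and 3045 (8 of 15), and markers of retinal pigment epithelium and melanocytes 268, 286, 298 and 334 (8 of 13). Müller glia markers had 38.5, 15.4, 31.0 and 31.0 (5 of 10) and markers of amacrine, horizontal and ganglion cells 152, 127, 128 and 103 (6 of 15). Single genes made up much of some sums. Without Dmd the muscle list stood at 130, 198, 104 and 182 CPM. Without Trpm1 the bipolar list stood at 362, 341, 453 and 358 CPM. Without Oca2 the pigment epithelium and melanocyte list stood at 131, 156, 255 and 248 CPM, higher in both deletion libraries than in wild type. Without Rpgrip1 the outer segment and cilium list stood at 2531, 2864, 2689 and 2959 CPM. The lens sum was highest in the deletion libraries through Bfsp1, a lens filament gene with 320, 344, 658 and 564 reads. Without Bfsp1 the list stood at 431, 715, 348 and 258 CPM, lower in both deletion libraries than in wild type. Of the 4 lens genes tested, Bfsp1 included, 2 were above 0 on the log2 genotype scale (median -0.36). Nothing is read from this count either, since the share of all hosts above 0 was not computed. The part of the lens in the Sag values was not tested. For the day 0 hosts of any of these lists were called by edgeR, with 1 of 12 outer segment, 2 of 4 lens and 1 of 4 muscle genes tested at an unadjusted p under 0.05, against the same 4.67% of all hosts. The crystallin gene Cryab and the lens channel gene Mip had no listed circRNA.

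On chromosome 1 the neighbours of Sag with a circRNA, among the 4 genes on each side, were Atg16l1, an autophagy gene, Dgkd, a diacylglycerol kinase gene, and Usp40. Dgkd, the next gene downstream, had 214, 225, 112 and 72 reads (log2 genotype difference -0.12). Atg16l1 had 13, 15, 8 and 10 (0.50) and Usp40 3, 17, 2 and 4.

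Of 1891 other hosts with at least 20 reads in every library, Carmil3 had the profile nearest to that of Sag, with a root mean square distance of 0.08 between centred log2 values over the 4 libraries. Carmil3 held 37, 44, 57 and 55 reads. Pdss2 (0.18; 113, 107, 141 and 148 reads), BC046251 (0.20; 116, 129, 243 and 223), the lens gene Bfsp1 (0.20; 320, 344, 658 and 564) and Atxn1 (0.20; 1024, 1254, 1197 and 1377) followed. The centred values of Sag themselves had a root mean square of 0.86, against a median of 0.22 over these hosts. None of the phototransduction genes was among these 5.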

How the data were processed

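The deposited count tables give back-spliced junction reads and non-junction reads per circRNA, in the CIRI layout per the file headers, with at least 2 junction reads per row. The deposited ratio is a fraction: junction reads counted at both ends, divided by that number and the non-junction reads together, which recomputation from the counts met within rounding. The deposited SRPBM signal is the junction reads divided by 1 constant per library that no label explains. The submitters' processing notes name BWA and DESeq2 with no role. Coordinates are those of the files; their build: not given in the sources used here. Names and neighbouring genes came from RefSeq's table for GRCm38.p6, in which 99.8% of host identifiers were found. A row belongs to Sag if Sag is its single host, and 0 rows named Sag with another host.

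TMM factors were computed on circRNAs that reached 10 reads in 2 or more libraries. edgeR 4.0.16 (glmQLFit, robust; glmQLFTest) was fitted with genotype and day as additive terms, which leaves 1 residual degree of freedom, with adjustment over the whole table at 0.05. DESeq2 1.42.0 was the alternative. Nothing says how many animals stand behind a library, and p-values cover only the residual spread of the 4 libraries. With 1 library per group this spread is the departure from additive genotype and day terms, and not a spread between replicates. Pairs of libraries were compared by exact conditional 95% intervals. The day test was checked on simulated data with 200 changed features. Named were the Sag circRNAs listed in all libraries or among the 10 most abundant, the 5 nearest hosts, phototransduction and arrestin genes with at least 50 reads, and 4 neighbours on each side. Other genes and members were named after their values were seen. The members and lists were chosen with earlier results of these data known.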

Additional observations from a re-analysis of the deposited data

Results flagged for a closer look

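Every Sag circRNA, and sums of them, were searched for day ratios on opposite sides of 1 in the genotypes, with both intervals off 1. The circRNA from acceptor 8 to donor 5 met this rule. Its wild-type ratio of P13 to P12 was 1.79 and its ratio for the deletion was 0.80, and both counting intervals lay off 1 as the rule asks. These intervals leave out any spread between libraries, and the share of all circRNAs that meet the rule was not computed. The difference was not tested, since an interaction of genotype and day leaves no residual degrees of freedom with 1 library per group.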

How the results depend on the processing

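No paired analysis was possible because each group held 1 library and the labels give no replicate numbers. The day result of summed Sag reads stayed uncalled under every alternative that was fitted, with log2 differences from 0.01 to 0.13. It was 0.18 within wild type and -0.11 within the deletion. The count of called Sag circRNAs was 0 throughout, while the calls over all circRNAs (1 up, 1 down) became 7 and 10 without a filter and 0 and 0 with DESeq2 or on the SRPBM scale. Of the 4 host calls, 0 were left with DESeq2 or on the SRPBM scale. The day value of acceptor 8 to donor 6 (-0.01) was 0.017 on the SRPBM scale. The log2 genotype difference of 1.72 became 0.26 on the SRPBM scale and 2.08 without the most abundant Sag circRNA, and ranged from 1.58 to 1.87 without single libraries. Counting only circRNAs of at least 10 reads gave Sag 0.0379%, 0.0465%, 0.173% and 0.163% of junction reads in place of 0.0431%, 0.0483%, 0.157% and 0.144%. The pooled ratio became 0.0133, 0.0141, 0.0320 and 0.0301 over circRNAs listed everywhere. As a median over circRNAs of at least 10 reads it was 0.0239, 0.0179, 0.0213 and 0.0223, where the genotypes overlap. The members behind that median differ between the libraries. The number listed in wild type P13 became 11.6 at equal depth. Of the 5 nearest hosts 4 were shared with a pseudocount of 5 and 1 with Pearson's correlation. Wild-type reads of 1 lane alone gave log2 genotype ratios of 2.08 and 1.68 at P12 and of 1.48 and 1.68 at P13. Merging neighbouring reads on a tile left 93.1% to 94.8% of Sag reads. This merging, the ratio over circRNAs listed everywhere, the values without acceptor 8 to donor 5, without acceptors 8 and 9 or without the top gene of a marker list, the junction to non-junction ratio over all listed circRNAs and TMM over hosts were chosen after seeing the data, and the cause of these shifts was not tested.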
